A study of Mus musculus with 4 samples.

Results

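The NR4A and EGR genes encode transcription factors that T cells switch on soon after their antigen receptor (TCR) is engaged. The 6 genes examined, the NR4A genes *Nr4a1*, *Nr4a2* and *Nr4a3* and the EGR genes *Egr1*, *Egr2* and *Egr3*, were taken by symbol from a table of 13265 genes, and all 6 were present. In TGFβR-KO cells the families parted by cluster: the 3 NR4A genes had their highest levels in tumorigenic cells, whereas the 3 EGR genes had theirs in germinal center follicular helper (GC-TFH) cells. For *Egr1* this lead was small, and pretumorigenic cells came first by share of cells.

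RNA of single YFP+CD4+ T cells, sorted from small intestines of mice aged 7 to 8 months, was measured by 10x droplet sequencing. All mice carried *Il17a-cre*, and the YFP reporter, placed after a floxed stop at *Rosa26*, marks cells in which Cre has acted, including cells that no longer express *Il17a*. TGFβR-KO mice also carried floxed *Tgfbr2*, which removes the TGFβ receptor from these cells. TGFβR-CA mice also carried a constitutively active form of *Tgfbr1* behind a floxed stop, and TGFβR-WT mice were littermates with neither receptor allele. There were 4 samples, 1 of TGFβR-KO with 2975 cells, 1 of TGFβR-CA with 1098 cells and 2 of TGFβR-WT with 1007 cells together. The study states that its single-cell data came from pooled mice. How many mice made up each sample is not given in the sources used here. Each receptor mutant was sequenced together with its own TGFβR-WT sample, in separate batches. The TGFβR-WT cells carry either of 2 name endings, shared by 709 cells (the larger set) and 298 cells (the smaller set). Neither set can be tied to one of the TGFβR-WT samples, so TGFβR-WT was pooled and each set is given beside it. With 1 sample of TGFβR-KO and 1 of TGFβR-CA no difference was tested, and genotype, library and batch cannot be told apart.

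Values are UMIs (unique molecular identifiers, 1 for each captured RNA molecule) corrected to a common depth by SCTransform. The level of a gene is the sum of its corrected UMIs over a group of cells, per 10000 corrected UMIs of all genes in those cells. It is a share of captured 3′ ends, so levels of different genes can be set side by side only as captured molecules. The share is the percentage of cells with a value above 0, with its exact Clopper-Pearson 95% interval, which covers counting error only. A ratio of levels of at least 1.5 in either direction was called by size. The median cell held 3794 (TGFβR-KO), 3659 (TGFβR-WT) or 3918 (TGFβR-CA) corrected UMIs, and cluster medians in TGFβR-KO ran from 3575 to 4271. All 7 CD4 T cell markers examined, *Cd4* and the CD3 and TCR chain genes among them, were detected in every condition. The summed levels of CD8 T cell, γδ T cell, myeloid and epithelial markers were at most 0.283 per 10000 in any condition. NK cell markers summed to 0.196 to 0.288, B and plasma cell markers to 0.460 to 0.703, and regulatory T cell (Treg) markers, which CD4 T cells can express, to 1.83 (TGFβR-KO), 3.96 (TGFβR-WT) and 3.93 (TGFβR-CA). Barcodes shared between sets numbered 16, of which 14 joined the larger TGFβR-WT set with TGFβR-KO.

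Both families are immediate early genes, transcribed without new protein synthesis after calcium and MAP kinase signals from the TCR. The NR4A proteins are orphan nuclear receptors. *Nr4a1*, which encodes NUR77, is widely used as a reporter of recent TCR signaling, and *Nr4a2* (NURR1) and *Nr4a3* (NOR1) bind the same DNA element. The EGR proteins are zinc finger factors. *Egr1* responds to many growth and stress signals through serum response factor, whereas *Egr2* and *Egr3* act downstream of NFAT and are known for restraining T cell activation and for supporting follicular helper T cells. *Nr4a1* was named by the study itself as a gene of the tumorigenic cluster in these same cells, and the clusters were built from the genes of these cells, so levels by cluster are a description.

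The promoters of the NR4A genes are shown because these genes moved together across clusters. Sequences are from RefSeq (GRCm38.p6), whose promoter table held 4 of the 6 genes, and capitals mark each TGACG, the core of the cAMP response element (CRE) bound by CREB and CREM, on either strand (CGTCA on the strand shown). *Nr4a1* (chromosome 15, 101254269 to 101274795, plus strand) and *Nr4a2* (chromosome 2, 57106830 to 57124003, minus strand) are shown with the 250 bases before a RefSeq start. The *Nr4a1* stretch lies in an intron of longer annotated transcripts, and the *Nr4a2* stretch overlaps no annotated transcript.
Nr4a1, chr15:101266596-101266845, plus strand: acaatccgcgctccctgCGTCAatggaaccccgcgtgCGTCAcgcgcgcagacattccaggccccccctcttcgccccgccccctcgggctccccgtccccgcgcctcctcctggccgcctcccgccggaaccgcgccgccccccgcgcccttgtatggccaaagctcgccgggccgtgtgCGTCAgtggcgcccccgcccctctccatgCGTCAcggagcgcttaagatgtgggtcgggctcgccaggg
Nr4a2, chr2:57124004-57124253, minus strand: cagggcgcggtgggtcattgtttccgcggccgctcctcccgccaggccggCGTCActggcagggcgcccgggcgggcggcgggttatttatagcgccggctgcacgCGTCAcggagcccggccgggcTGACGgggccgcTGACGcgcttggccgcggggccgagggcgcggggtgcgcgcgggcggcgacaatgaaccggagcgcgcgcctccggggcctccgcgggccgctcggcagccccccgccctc
Nr4a3, chr4:48045074-48045096, plus strand: TGACGtagcgtcccatgtCGTCA
Egr2, chr10:67537797-67537818, plus strand: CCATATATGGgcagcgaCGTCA
The stretch of *Nr4a3* (chromosome 4, 48045153 to 48086447, plus strand) lies 209 to 231 bases before its RefSeq start and outside annotated transcripts. The stretch of *Egr2* (chromosome 10, 67535475 to 67542188, plus strand) lies 52 to 73 bases before its start, in an intron of a longer transcript, and its capitals also mark a CArG box, the site of serum response factor. The 250 bases before the start held 4 TGACG cores in each of *Nr4a1*, *Nr4a2* and *Nr4a3*, and 2 in *Egr2*. Of 27025 mouse promoter windows of the same length, 17.9% held at least 1 such core, 4.02% at least 2 and 0.152% at least 4. A CArG box was found in *Egr2* and in 1.40% of all windows, and the EGR motif GCGNGGGCG in *Nr4a1* and *Nr4a2* and in 4.65% of all windows. These are matches of letters on either strand, not sites shown to be bound. *Egr1* and *Egr3* are not shown.

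*Nr4a1* was the most abundant of the 6 genes in TGFβR-KO tumorigenic cells. Its level was 10.7 there, in 301 of 361 cells (83.4%, interval 79.1 to 87.1%). It was 7.76 in pretumorigenic cells (67.8%), 1.73 in cycling cells (22.1%) and 0.739 in GC-TFH cells (11.3%). In activated, CTL, migratory and tissue-resident follicular helper (TR-TFH) cells it lay between 0.0570 and 0.131, with shares of 1.16 to 3.46% that did not separate from their neighbors in the order. Tumorigenic and pretumorigenic cells thus stood apart from each other and from every other cluster by share, and the interval of GC-TFH cells overlapped that of cycling cells. TR-TFH cells, where *Nr4a1* was found in 6 of 519 cells, had a median depth of 3575 corrected UMIs against 3940 in tumorigenic cells. Tumorigenic cells were 12.1% of TGFβR-KO cells and held 63.0% of their *Nr4a1* UMIs, and pretumorigenic cells (7.73%) held another 28.2%. Positive tumorigenic cells had a mean of 5.02 UMIs of *Nr4a1* and a maximum of 23.

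*Nr4a3* had the same order in its leading clusters at a lower level. It was at 2.25 in tumorigenic cells (43.5% of cells, 38.3 to 48.8%), 1.02 in pretumorigenic cells (23.5%, 18.2 to 29.5%) and 0.747 in GC-TFH cells (11.6%, 8.33 to 15.7%), and these shares did not overlap. From cycling cells (0.372) downwards, neighboring clusters overlapped, to a lowest level of 0.0622 in TR-TFH cells. *Nr4a2* was detected in few cells. It was at 0.928 in tumorigenic cells (55 cells, 15.2%, 11.7 to 19.4%) and 0.689 in pretumorigenic cells (23 cells, 10.0%, 6.45 to 14.6%), whose intervals overlapped. In each of the other clusters it was found in 0 to 3 cells. Its GC-TFH level of 0.284 came from 3 cells, 1 of which held 28 of the 35 UMIs.

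The EGR genes had another order. *Egr1*, found in 13.4 to 36.1% of the cells of each cluster, was at 3.0 in GC-TFH cells (32.7%), 2.71 in pretumorigenic cells (36.1%), 2.21 in activated cells (26.4%), 1.36 in TR-TFH cells (17.1%), 1.31 in migratory cells (25.8%), 1.11 in tumorigenic cells (22.4%), 0.802 in CTL (13.4%) and 0.527 in cycling cells (18.2%). Neighbors overlapped at every step of the order by share. *Egr2* was at 1.03 in GC-TFH cells (55 of 318 cells, 17.3%, 13.3 to 21.9%), apart from all other clusters, which had shares of 1.66 to 3.90%. Its lowest level was 0.0425 in tumorigenic cells, with 1 UMI in each of 6 cells. *Egr3* was at 2.05 in GC-TFH cells (54 cells, 17.0%, 13.0 to 21.6%), where 1 cell held 43 of the 253 UMIs, and at 0.106 to 0.343 elsewhere. By share GC-TFH cells overlapped only cycling cells (5 of 77 cells, 6.49%, 2.14 to 14.5%).

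**Figure D1:**
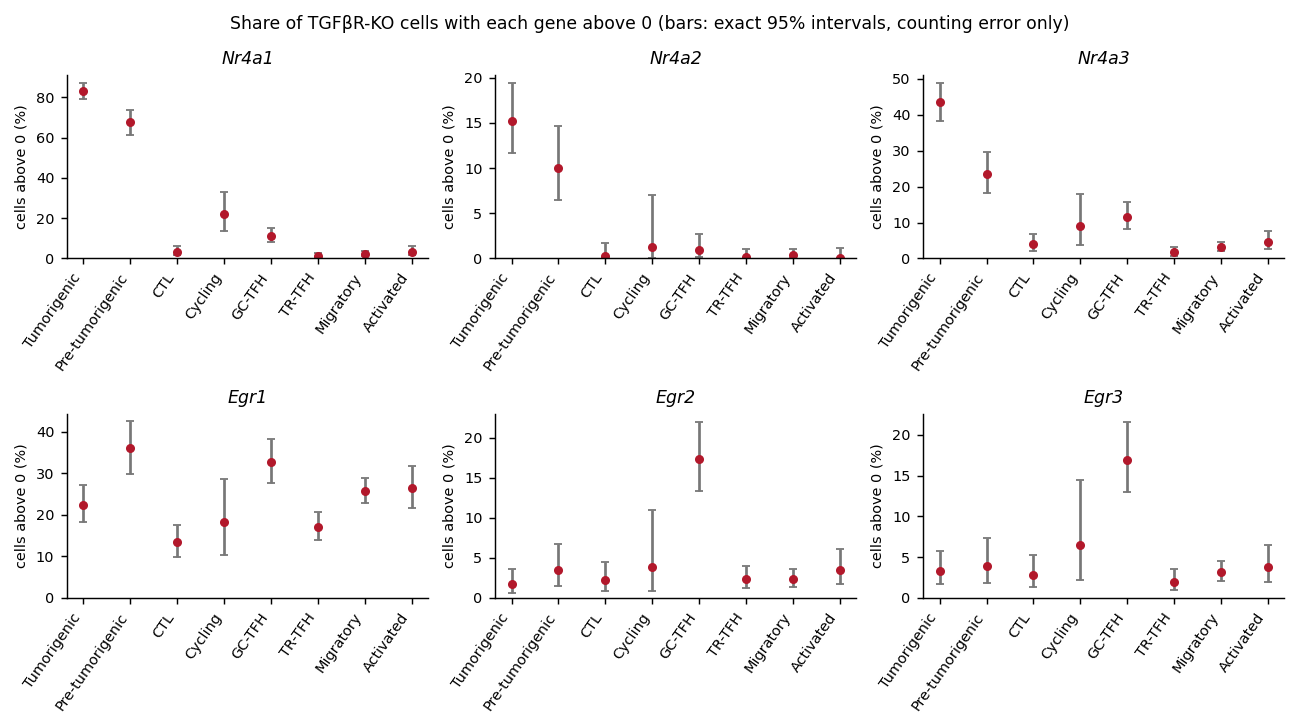
Share of TGFβR-KO cells with each gene above 0 (y axis, %, one scale per gene) by cluster (x axis); points are shares and bars exact 95% intervals for counting error. The NR4A genes peak in tumorigenic cells, with 83.4% for *Nr4a1*, and *Egr2* and *Egr3* in GC-TFH cells, with 17.3 and 17.0%.

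Set against all other TGFβR-KO cells, the tumorigenic cells had 12.2 times the level of *Nr4a1* (10.7 against 0.880), 9.16 times that of *Nr4a2* (0.928 against 0.101) and 7.90 times that of *Nr4a3* (2.25 against 0.285). All 3 NR4A genes were called higher, as were 6.43% of 7480 genes. The 3 EGR genes were called lower, as were 25.9% of genes: *Egr1* was at 0.665 times (1.11 against 1.67), *Egr2* at 0.168 times (0.0425 against 0.252) and *Egr3* at 0.233 times (0.106 against 0.456) the level of the other cells. The median log2 ratio of all genes was -0.25 in this comparison. By share of cells only *Egr2* stayed past 1.5-fold among the lower genes. Cells of the CTL cluster, like tumorigenic cells nearly absent outside TGFβR-KO, had little NR4A RNA: the tumorigenic level was 118 times higher for *Nr4a1*, 112 times for *Nr4a2* and 14.3 times for *Nr4a3* (10.7% of genes called higher), where *Nr4a2* in CTL was 1 UMI in 321 cells. *Egr2* at 0.302 times and *Egr3* at 0.612 times were called lower than in CTL (25.3% of genes), and *Egr1* was at 1.39 times.

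Pretumorigenic cells shared part of this pattern. Against the other TGFβR-KO cells they had 4.79 times the level of *Nr4a1*, 4.23 times that of *Nr4a2* and 2.10 times that of *Nr4a3*, and unlike tumorigenic cells also 1.79 times that of *Egr1* (4 of 6 called higher, 5.02% of genes). *Egr3* was called lower at 0.426 times (21.3% of genes) and *Egr2* was at 0.693 times. Set directly against pretumorigenic cells, tumorigenic cells had 2.20 times the *Nr4a3* (11.0% of genes called higher), 1.38 times the *Nr4a1* and 1.35 times the *Nr4a2*. All 3 EGR genes were called lower in that comparison (13.6% of genes), with ratios of 0.410 for *Egr1*, 0.264 for *Egr2* and 0.578 for *Egr3*.

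Heat shock genes, which tissue dissociation also induces, moved with these clusters. Cells with *Hspa1a* or *Hspa1b* above 0 were 93.9% of pretumorigenic, 46.5% of tumorigenic and 46.0% of all TGFβR-KO cells. Among tumorigenic cells *Nr4a1* was at 12.3 in the 168 cells with these RNAs and 9.33 in the 193 without. With all such cells left out, tumorigenic cells had 34.7 times the *Nr4a1*, 18.6 times the *Nr4a2* and 9.48 times the *Nr4a3* of the other cells, but this also took 216 of the 230 pretumorigenic cells, with their high NR4A levels, out of the other cells. Only 14 pretumorigenic cells lacked these RNAs, of which 9 had *Nr4a1*, and the part of dissociation in the tumorigenic and pretumorigenic values was not tested.

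GC-TFH cells, which help B cells in germinal centers, had 2.10 times the *Egr1* (3.0 against 1.43), 7.94 times the *Egr2* (1.03 against 0.130) and 9.52 times the *Egr3* (2.05 against 0.216) of the other TGFβR-KO cells, with 15.8% of genes called higher. *Nr4a1* was called lower at 0.328 times (10.1% of genes), where the other cells include the tumorigenic and pretumorigenic clusters, and *Nr4a2* and *Nr4a3* were at 1.47 and 1.49 times. In the other conditions, which have few tumorigenic cells, members of both families were called higher in GC-TFH cells. In TGFβR-WT their levels were 4.90 times those of the other cells for *Nr4a1*, 4.11 for *Nr4a3*, 1.64 for *Egr1*, 3.22 for *Egr2* and 5.57 for *Egr3* (12.4% of genes called higher), with *Nr4a2* listed at 0 throughout. In TGFβR-CA the ratios were 7.49 for *Nr4a1*, 15.5 for *Nr4a2* (3 cells), 8.58 for *Nr4a3*, 2.05 for *Egr1*, 3.66 for *Egr2* and 3.62 for *Egr3* (12.8% of genes). B and plasma cell markers moved with the cluster: the 5 measured markers (*Cd79a*, *Cd79b*, *Ms4a1*, *Jchain*, *Mzb1*) summed to 2.11 per 10000 in TGFβR-KO GC-TFH cells against 0.654 in all TGFβR-KO cells, 0.589 against 0.460 in TGFβR-WT and 2.65 against 0.703 in TGFβR-CA. In TGFβR-CA GC-TFH cells *Cd79a*, *Ms4a1* and *Mzb1* were at 0. In GC-TFH cells of the smaller TGFβR-WT set 4 of the 5 markers were at 0 and the sum was 0.0414, with *Egr2* at 0.952 and *Egr3* at 0.786. In those of the larger set the sum was 0.851, with *Egr2* at 0.713 and *Egr3* at 1.15. Treg markers moved with the cluster as well, at 4.20 against 1.83 over all cells in TGFβR-KO, 6.03 against 3.96 in TGFβR-WT and 5.52 against 3.93 in TGFβR-CA. The part of B and plasma cell markers and of Treg markers in the EGR values was not tested.

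**Figure D2:**
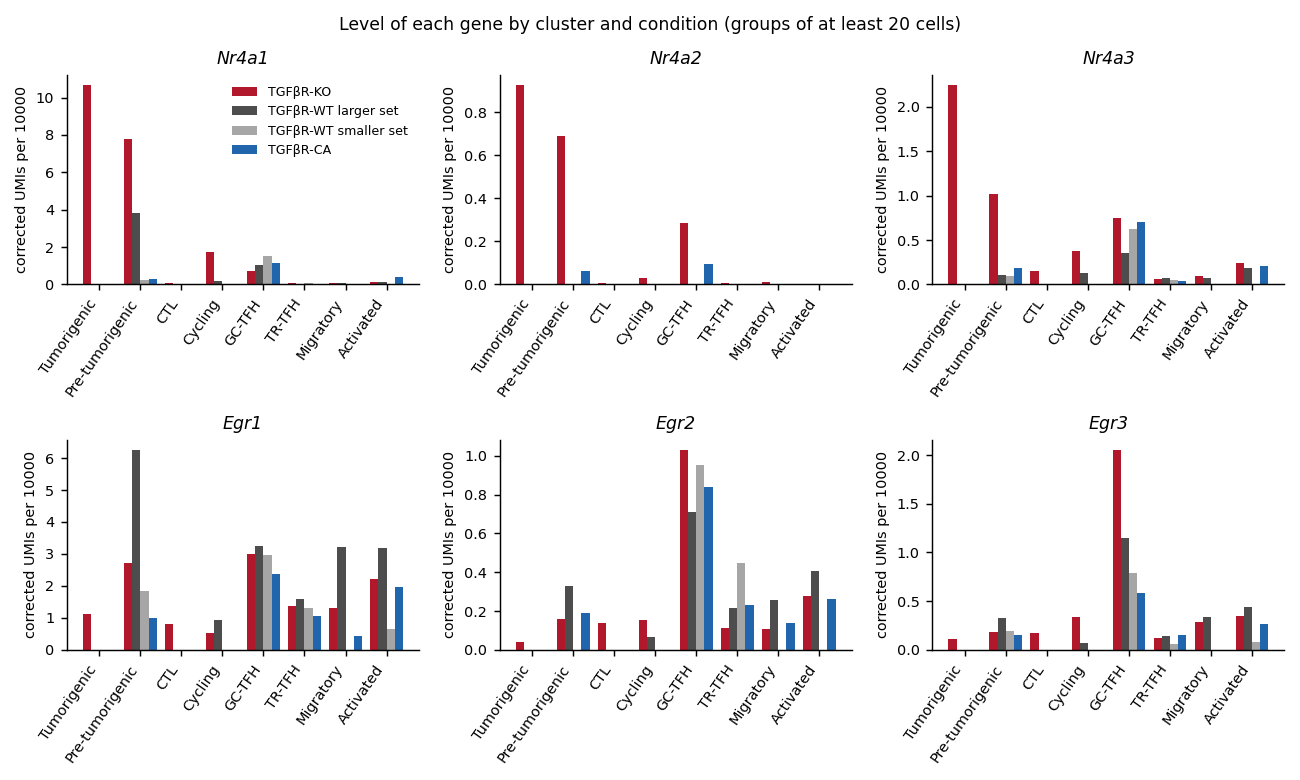
Level of each gene (y axis, corrected UMIs per 10000, one scale per gene) by cluster (x axis) in TGFβR-KO, each TGFβR-WT set and TGFβR-CA; groups under 20 cells are not drawn, which leaves tumorigenic and CTL cells for TGFβR-KO alone. *Nr4a1* reaches 10.7 in TGFβR-KO tumorigenic cells, and *Egr2* is highest in GC-TFH cells of every condition, between 0.713 and 1.03.

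The combinations of members within single cells were counted next. In tumorigenic cells 37 of 361 (10.2%) had none of the 6 genes, 125 had 1, 126 had 2, 59 had 3, 12 had 4 and 2 had 5. An NR4A gene without any EGR gene was found in 234 of these cells (64.8%, 59.6 to 69.7%), and an EGR gene without any NR4A gene in 6 (1.66%, 0.612 to 3.58%). In GC-TFH cells of TGFβR-KO, 178 of 318 (56.0%) had none, and the balance was the other way: 17 cells (5.35%) had NR4A without EGR, 82 (25.8%) EGR without NR4A and 41 (12.9%) both. This balance was not particular to GC-TFH cells. EGR without NR4A was found in 25.3% of migratory, 24.2% of activated, 17.1% of TR-TFH and 13.7% of CTL cells, more than NR4A without EGR. Pretumorigenic (6.09 against 42.6%) and cycling cells (15.6 against 18.2%) had less EGR without NR4A than NR4A without EGR. Only 1 TGFβR-KO cell, a GC-TFH cell, had all 6. GC-TFH cells of all conditions had overlapping intervals, with EGR without NR4A in 25.1% of TGFβR-WT and 26.6% of TGFβR-CA cells and 3 or more members in 12.3, 11.6 and 10.6% of TGFβR-KO, TGFβR-WT and TGFβR-CA cells.

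**Figure D3:**
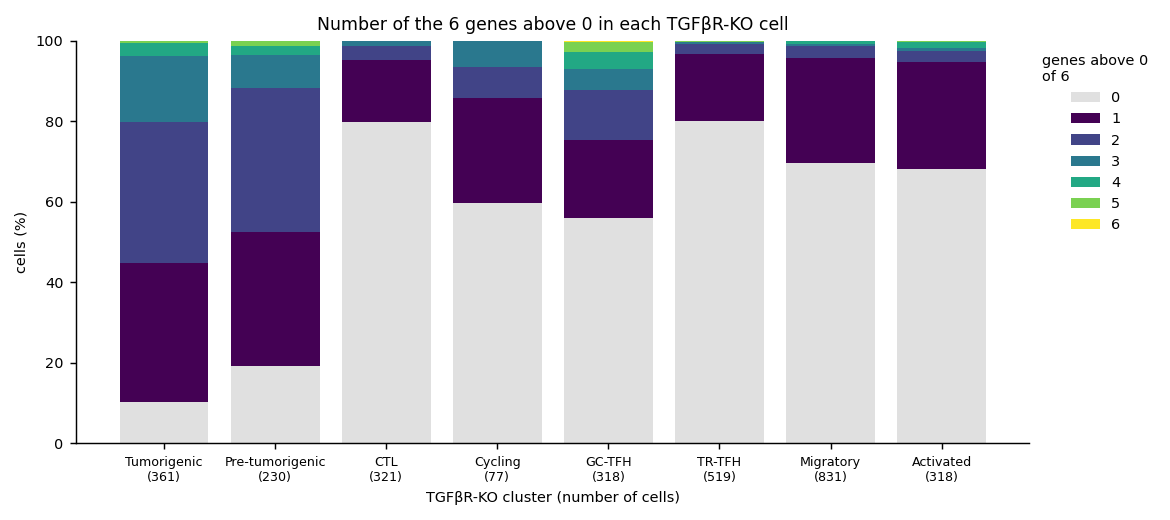
Percentage of TGFβR-KO cells (y axis) with 0 to 6 of the genes above 0, stacked, by cluster (x axis, with cell numbers). Cells with none are fewest among tumorigenic cells (10.2%), and cells with 5 or 6 members are mostly GC-TFH cells.

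Within GC-TFH cells of TGFβR-KO, *Egr1* was above 0 in 47 of 55 cells with *Egr2* (85.5%, 73.3 to 93.5%) and in 57 of 263 without (21.7%, 16.8 to 27.1%). TGFβR-WT cells gave 66.7% with and 23.5% without *Egr2*, and TGFβR-CA cells 83.3 and 22.8%, so the intervals of cells with and without *Egr2* were apart in all 3 conditions. *Egr2* was found in 50% of cells with *Egr3* and in 10.6% of those without, and *Nr4a1* in 42.6% of cells with *Egr3* (29.2 to 56.8%) and 4.92% of those without (2.65 to 8.27%). In tumorigenic cells *Nr4a3* was above 0 in 146 of 301 cells with *Nr4a1* (48.5%, 42.7 to 54.3%) and in 11 of 60 without (18.3%, 9.52 to 30.4%). *Egr1* was found in 29.9% of tumorigenic cells with *Nr4a3* (22.9 to 37.8%) and 16.7% of those without (11.8 to 22.5%). These cells come from 1 library per condition, and the depth of a cell before correction, which sets how many genes are detected in it, was not used here.

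*Ifng*, the T helper 1 cytokine gene, was at 21.5 per 10000 in tumorigenic TGFβR-KO cells, in 217 of 361 cells (60.1%), against 3.44 in CTL (47.4%) and 0.861 in GC-TFH cells (8.81%). Within tumorigenic cells the shares of each NR4A gene with and without *Ifng* had overlapping intervals. *Nr4a1* was above 0 in 82.0% of cells with *Ifng* (76.3 to 86.9%) and 85.4% of cells without (78.6 to 90.7%). *Nr4a2* was found in 17.1 and 12.5%, and *Nr4a3* in 42.4 and 45.1%. *Egr1* had the widest gap, 26.3% (20.5 to 32.7%) against 16.7% (11.0 to 23.8%), whose intervals overlapped. *Egr2* was found in 1.84 and 1.39% and *Egr3* in 2.77 and 4.17%. Read the other way, *Ifng* was above 0 in 39 of 60 tumorigenic cells with no *Nr4a1* UMI (65.0%), 32 of 53 with 1 (60.4%), 66 of 116 with 2 to 4 (56.9%) and 80 of 132 with 5 or more (60.6%), and its level in these groups was 24.3, 17.7, 14.3 and 28.4. Neither rose steadily with the UMIs of *Nr4a1*. In the 28 GC-TFH cells with *Ifng*, by contrast, *Nr4a3* was found in 39.3% (21.5 to 59.4%) against 8.97% of the 290 without (5.94 to 12.9%), and *Egr3* in 39.3% (21.5 to 59.4%) against 14.8% (10.9 to 19.4%).

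**Figure D4:**
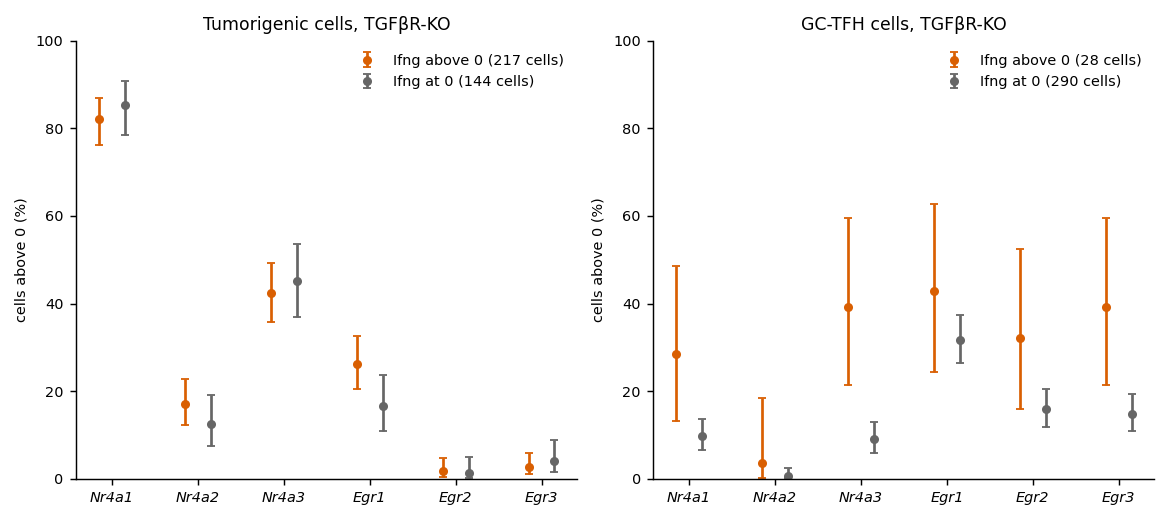
Share of TGFβR-KO cells with each gene above 0 (y axis, %) among cells with and without *Ifng*, in tumorigenic (left) and GC-TFH cells (right); bars are exact 95% intervals. The paired intervals overlap for all 6 genes in tumorigenic cells, and are apart for *Nr4a3* and *Egr3* in GC-TFH cells.

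Other genes of the pathway were followed in 5 lists, which include genes that the study named from these cells, such as *Bhlhe40*. Their counts stand beside the 6.43% of all genes called higher and 25.9% called lower in tumorigenic cells. Of 20 genes of the TCR early response, 18 passed the filter in tumorigenic against other TGFβR-KO cells, and 11 were called higher and 2 lower, with a median ratio of 2.53. The largest ratios were those of *Dusp5* (13.0), an ERK phosphatase, *Bhlhe40* (10.9), a cytokine regulator, *Rel* (5.75), an NF-κB subunit, and *Gadd45b* (5.0). The smallest were those of *Tnfrsf9* (0.474), which encodes the costimulatory receptor 4-1BB, and the chemokine gene *Xcl1* (0.403). Of 14 other immediate early genes, 12 passed and 11 were called higher and 0 lower (median 2.71), led by *Fosl2* (11.9), *Fosb* (5.78), *Junb* (5.18) and *Klf6* (3.85), with *Fos* (1.65) and *Jun* (1.29) smallest. Among 10 heat shock genes 8 were called higher and 0 lower (median 1.88), led by *Dnajb1* (2.75), *Dnaja1* (2.32), *Hsph1* (2.20) and *Hsp90aa1* (2.12), with *Hspe1* (1.39) and *Hspa1b* (1.35) smallest.

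Genes that carry or set the TCR signal were called lower at shares near the 25.9% of all genes. Of 15 genes of the TCR complex and its kinases, 0 were called higher and 3 lower in tumorigenic cells (median 0.852), with the adaptor genes *Lcp2* at 1.04 and *Lat* at 1.03 times and *Plcg1* (0.625) and *Prkcq* (0.549) lowest. Of 16 regulators and partners of the NR4A and EGR genes, 13 passed, with 2 called higher and 3 lower (median 0.855). *Crem*, whose product binds the CRE, was at 4.04 times and *Mef2d*, a calcium-responsive activator of *Nr4a1*, at 1.57 times, followed by the ubiquitin ligase gene *Itch* (1.18) and *Srf* (1.08). The diacylglycerol kinase genes *Dgka* (0.597) and *Dgkz* (0.453), whose products limit TCR signaling and which EGR proteins are known to induce, were lowest.

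In GC-TFH cells 15.8% of all genes were called higher and 10.1% lower. Of 18 TCR early response genes 9 were called higher and 2 lower (median 1.60), led by the chemokine genes *Xcl1* (46.5), *Ccl3* (35.2) and *Ccl4* (9.45) and by *Tnfrsf9* (6.85), while *Dusp5* (0.205) and *Bhlhe40* (0.194), the leading genes in tumorigenic cells, were lowest. Of the regulators and partners 4 were called higher and 1 lower: *Nab2* (3.53) and *Nab1* (1.64), corepressors that EGR proteins recruit, *Dgkz* (2.37) and *Cblb* (1.77), a ubiquitin ligase that limits TCR signaling, were higher, and *Crem* (0.462) was lower, with *Nfatc3* at 0.713. Of 12 other immediate early genes 0 were called higher and 10 lower (median 0.353), from *Ier5* (0.928), *Jund* (0.824), *Btg2* (0.558) and *Ier2* (0.542) down to *Fosb* (0.191) and *Klf6* (0.137). Of the TCR complex genes *Zap70* (2.26) and *Fyn* (1.70) were called higher and 0 lower, 2 of 15 and so near the share of all genes. Among heat shock genes 0 were higher and 3 lower, with *Hspa1b* at 0.114 and *Hspa1a* at 0.108.

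**Figure D5:**
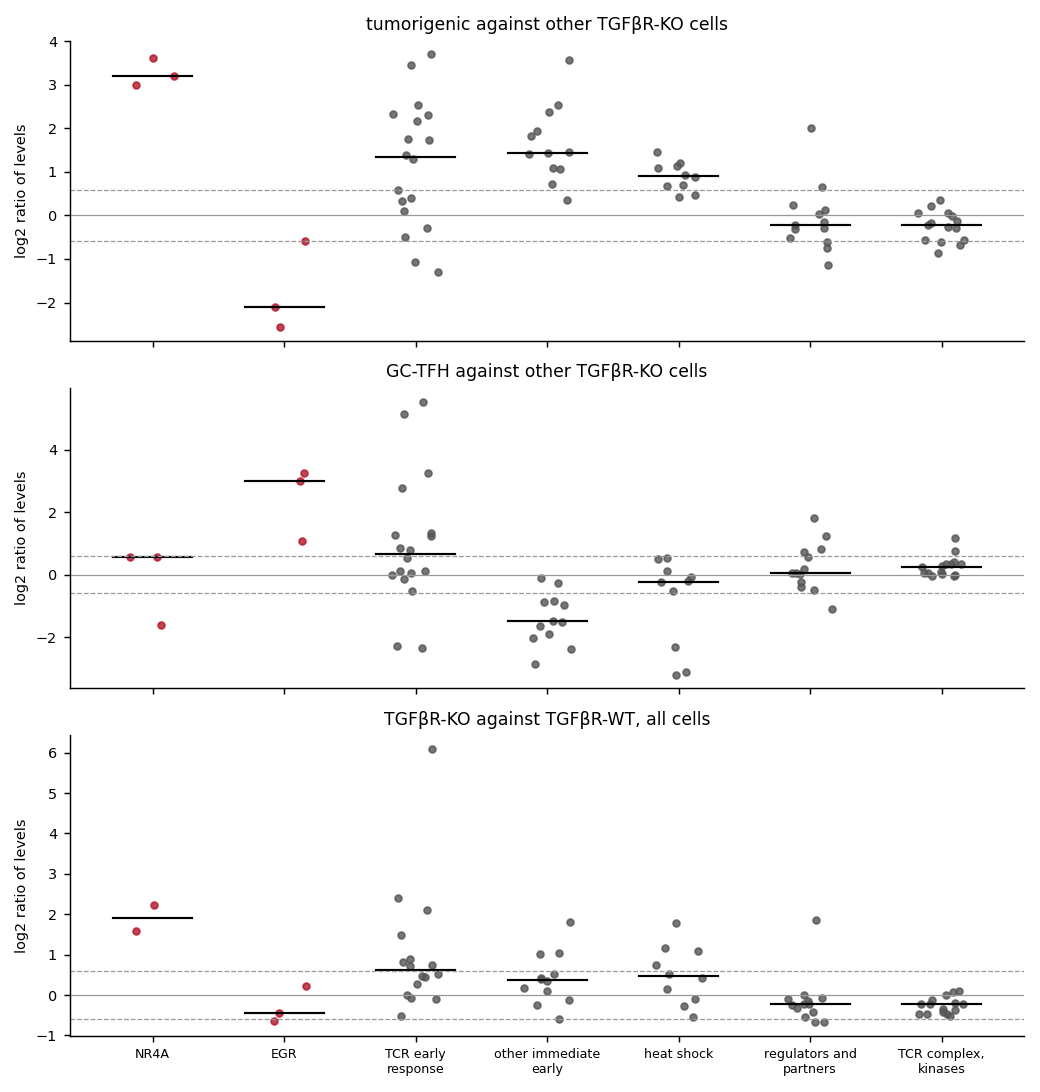
Log2 ratio of levels (y axis) for each gene (points) of the NR4A and EGR families and the 5 lists (x axis) in tumorigenic and GC-TFH cells against other TGFβR-KO cells and in TGFβR-KO against TGFβR-WT; black lines are medians and dashed lines 1.5-fold. NR4A and other immediate early genes lie above 0 in tumorigenic cells (medians 9.16 and 2.71-fold), and EGR genes lie above 0 in GC-TFH cells (median 7.94-fold).

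Among the 8 TGFβR-KO clusters, profiles were compared by Pearson's r of log2(level + 0.1), as a description over 8 points from 1 library. The NR4A genes followed each other (r = 0.90 to 0.94) and *Egr2* followed *Egr3* (r = 0.95), whereas *Nr4a1* with *Egr2* gave r = -0.16, and *Egr1* lay between, with r = 0.59 to *Egr2* and 0.08 to *Nr4a1*. Of 5952 genes ranked, the closest to *Nr4a1* were the NF-κB inhibitor gene *Nfkbia* (0.99), *Nfkbiz* (0.98) and the cytokine gene *Csf2* (0.98). Closest to *Nr4a2* were *Nfkbid* (0.99), *Bcl10* (0.96) and *Gna13* (0.96), and to *Nr4a3* *Rel* (0.98), *Nfkbiz* (0.97) and *Per1* (0.96). *Egr1* was closest to *Cited2* (0.94), *Zdhhc5* (0.94) and *Rabgap1l* (0.93), *Egr2* to *Bcor* (0.98), *Atp9b* (0.96) and *Eea1* (0.96), and *Egr3* to *Eif3b* (0.98), *Mrpl17* (0.96) and *Larp4* (0.96).

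The conditions were then compared to ask how loss or activation of TGFβ signaling in these cells went with NR4A and EGR RNA. Over all cells, *Nr4a1* was at 2.09 in TGFβR-KO (18.7% of cells), 0.459 in the larger and 0.412 in the smaller TGFβR-WT set (5.22 and 6.38%) and 0.406 in TGFβR-CA (5.01%). *Nr4a3* was at 0.527 in TGFβR-KO, 0.176 and 0.173 in the TGFβR-WT sets and 0.233 in TGFβR-CA. For both genes TGFβR-KO was above every other library, and the TGFβR-WT sets were close together. *Nr4a2* was found in 87 TGFβR-KO cells (level 0.203), in 5 TGFβR-CA cells (0.0274) and in 0 of 1007 TGFβR-WT cells. A limit of 3 cells allows a share of up to 0.298% of cells with a UMI, and the exact interval ends at 0.366%. *Egr1* was at 1.60 in TGFβR-KO, 2.45 and 1.62 in the TGFβR-WT sets and 1.46 in TGFβR-CA. *Egr2* was at 0.226, 0.339, 0.387 and 0.379 and *Egr3* at 0.413, 0.411, 0.239 and 0.262 in the same order. The EGR genes of TGFβR-KO thus lay near or within the span of the other libraries, apart from the lower *Egr2*.

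Against pooled TGFβR-WT, TGFβR-KO cells had 4.71 times the *Nr4a1* and 3.02 times the *Nr4a3* (4.30% of 7485 genes called higher), and 0.638 times the *Egr2* (10.5% of genes called lower). *Egr1* was at 0.736 and *Egr3* at 1.16 times, and no fold is given for *Nr4a2*, which was listed at 0 in TGFβR-WT. The median log2 ratio of all genes was -0.17. Against each TGFβR-WT set as well as the pool, *Nr4a1* and *Nr4a3* were called higher (2.76% of genes) and *Egr2* was not called. Without tumorigenic and pretumorigenic cells, 0 members were called, where 3.85% of genes were higher and 9.41% lower: *Nr4a1* was at 0.701, *Nr4a3* at 1.36, *Egr1* at 0.752, *Egr2* at 0.689 and *Egr3* at 1.32 times TGFβR-WT. The higher *Nr4a1* over all TGFβR-KO cells was thus not seen over the summed cells of the other clusters. The tumorigenic and pretumorigenic clusters held 361 and 230 TGFβR-KO cells but 5 and 79 TGFβR-WT cells. By cluster, *Nr4a1* was higher in TGFβR-KO cycling cells, at 1.73 (17 of 77 cells) against 0.235 (4 of 45) in TGFβR-WT. The intervals of these shares overlapped. Its ratio to TGFβR-WT was 1.58 in TR-TFH, 1.45 in activated, 0.606 in GC-TFH and 0.644 in migratory cells. The TR-TFH ratio rests on 11 UMIs in 6 of 519 TGFβR-KO cells, 6 of them in 1 cell, against 6 UMIs in 5 of 460 cells. Without the filter 9.04% of genes were higher by at least 1.5-fold in TR-TFH cells. The TGFβR-WT levels of activated and migratory cells rest on 4 UMIs each. CTL, with 13 TGFβR-WT cells, were not compared. With TGFβR-KO clusters weighted by their shares in TGFβR-WT, the ratios were 2.12 for *Nr4a1*, 1.87 for *Nr4a3* and 1.60 for *Egr3*.

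Of the lists, the TCR early response had 8 of 16 genes called higher and 0 lower in TGFβR-KO against TGFβR-WT (median 1.54), led by *Ccl4* (68.2), *Dusp5* (5.27), *Bhlhe40* (4.28) and *Il2* (2.79), with *Dusp2* (0.930) and *Cd5* (0.699) smallest. The *Ccl4* value rests on a TGFβR-WT level of 0.0161. Other immediate early genes had 3 of 12 called higher, *Fosl2* (3.53), *Fosb* (2.05) and *Junb* (2.01), and 0 lower, and heat shock genes 4 of 10 higher, with *Hspa1a* at 3.42 times, and 0 lower. Of the regulators *Crem* was higher (3.60) and *Cblb* (0.634) and *Dgkz* (0.629) were lower, and 0 of 15 TCR complex genes were called in either direction. Of all genes 4.30% were called higher and 10.5% lower in this comparison, so the counts of lower regulators and of TCR complex genes lay near those of genes at large.

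Pretumorigenic cells occur in every condition, so the members could be compared within them. *Nr4a1* was at 7.76 in the 230 TGFβR-KO cells, 3.84 in 27 cells of the larger TGFβR-WT set, 0.248 in 52 cells of the smaller set and 0.313 in 83 TGFβR-CA cells. The shares were 67.8% (61.4 to 73.8%), 25.9% (11.1 to 46.3%), 5.77% (1.21 to 15.9%) and 10.8% (5.08 to 19.6%), so TGFβR-KO stood above each of the others, although the TGFβR-WT sets differed widely in level and 1 cell of the larger set held 17 of its 35 UMIs. *Nr4a3* was at 1.02, 0.110, 0.0991 and 0.188 in the same order, with 54 positive cells in TGFβR-KO and 1, 2 and 6 in the others. *Nr4a2* was found in 23 TGFβR-KO cells, 0 of 79 TGFβR-WT cells (up to 3.80% by the limit of 3 cells, 4.56% by the exact interval) and 2 TGFβR-CA cells.

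Against pooled TGFβR-WT pretumorigenic cells, TGFβR-KO cells had 5.69 times the *Nr4a1*, 9.98 times the *Nr4a3* and 1.57 times the *Egr2* (15.2% of 7370 genes called higher), the last resting on 3 UMIs in 2 TGFβR-WT cells. *Egr1* was at 0.845 and *Egr3* at 0.769 times, neither called lower (26.8% of genes). Against each set as well, *Nr4a1* and *Nr4a3* were called higher (4.86% of 6422 genes). *Egr1* parted the TGFβR-WT sets, at 6.26 in the larger set against 1.83 in the smaller, on either side of the 2.71 in TGFβR-KO. Between the same groups of cells B and plasma cell markers summed to 6.04, 0.446 and 0.551, and cells with *Hspa1a* or *Hspa1b* were 96.3, 65.4 and 93.9%, whose part in these values was not tested. Summed heat shock RNA was 281 per 10000 in TGFβR-KO, 120 and 114 in the TGFβR-WT sets and 97.4 in TGFβR-CA pretumorigenic cells, and its part in these differences was not tested. The remaining immediate early genes were nearer to each other, with sums of 263, 206, 256 and 231.

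In GC-TFH, TR-TFH and activated cells, which had at least 20 cells in each TGFβR-WT set, few members differed from both sets. In GC-TFH cells *Egr3* was at 2.05 in TGFβR-KO against 1.15 and 0.786 in the TGFβR-WT sets (called higher, as were 3.0% of genes), while its shares of 17.0% and, in pooled TGFβR-WT, 12.1% had overlapping intervals. Without the TGFβR-KO cell that held 43 UMIs the ratio to the larger set fell from 1.79 to 1.49, under the call, and with the cell richest in *Egr3* left out of each group it was 1.91. In TR-TFH cells *Egr2* was at 0.114 in TGFβR-KO against 0.214 and 0.449 (called lower, as were 8.16% of genes), with shares of 2.31% in TGFβR-KO, 3.06% (1.48 to 5.55%) in one set and 10.5% (5.88 to 17.0%) in the other, and only the interval of the smaller set lay apart from that of TGFβR-KO. With the cell richest in *Egr2* left out of each group, the ratio to the larger set was 0.761 in place of 0.534, which ended that call. *Egr1* in GC-TFH cells was at 3.0 in TGFβR-KO, 3.25 and 2.98 in the TGFβR-WT sets and 2.38 in TGFβR-CA, and *Nr4a1* was at 0.739, 1.07, 1.53 and 1.18 in the same order. Migratory and cycling cells were few in the smaller set (16 and 4 cells) and were not compared with each set. In migratory cells *Egr1* was at 1.31 in TGFβR-KO (25.8%, 22.8 to 28.9%) and 2.87 in pooled TGFβR-WT (39.3%, 29.1 to 50.3%), with intervals apart. In the larger set it was at 3.22, and in the 16 cells of the smaller set at 1.48. Of 7438 genes 5.78% were lower by at least 2-fold in TGFβR-KO against pooled TGFβR-WT migratory cells.

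Cells with the constitutively active receptor were compared in the same way. Over all cells of TGFβR-CA against pooled TGFβR-WT, 0 members were called in either direction, where 2.43% of 7479 genes were called higher and 7.13% lower. The ratios were 0.916 for *Nr4a1*, 1.33 for *Nr4a3*, 0.670 for *Egr1*, 1.07 for *Egr2* and 0.739 for *Egr3*, so *Egr1* lay at the edge of a call. Within pretumorigenic cells *Egr1* was at 1.0 in TGFβR-CA and called lower than each TGFβR-WT set (14.4% of genes), and *Nr4a3* was called higher (6.18% of genes) on 6 positive cells of 83, against 3 of 79 in TGFβR-WT. By share *Egr1* was in 22.9% of these TGFβR-CA cells (14.4 to 33.4%). The larger TGFβR-WT set had 63.0% (42.4 to 80.6%) and the smaller 19.2% (9.63 to 32.5%), so only the larger set lay apart. In migratory cells *Egr1* was at 0.419 in TGFβR-CA (11.5%, 4.35 to 23.4%) and 2.87 in pooled TGFβR-WT (39.3%, 29.1 to 50.3%), with intervals apart. Of 7245 genes 13.0% were lower by at least 2-fold in that comparison. Against the pool, *Nr4a1* in activated cells (0.413 against 0.09) and *Nr4a3* in GC-TFH cells (0.70 against 0.442) were higher. *Egr3* in GC-TFH cells was lower (0.579 against 1.03). None of these last values was called against each set as well.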

How the data were processed

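The authors sorted YFP+CD4+ T cells, sequenced them by 10x 3′ chemistry, and per the labels and methods used Cell Ranger (3.1.0), Seurat and mm10, kept cells by detected genes and mitochondrial reads, removed γδ T and epithelial cells, and ran SCTransform and integration. The deposited table of 13265 genes by 5080 cells holds the natural log (ln) of 1 plus the SCTransform-corrected UMIs and each cell's cluster. How doublets were treated is not given in the sources used here. The log was undone, and values came out whole within 1e-06. Since corrected values are not counts of reads, no test made for counts was run and no p-value is given. Genes with at least 200 corrected UMIs entered the gene-wide comparisons, and 1.5-fold was the call. Per list, the 4 largest and 2 smallest ratios are named, apart from some that are not reported here. Members, lists and rules were chosen with earlier results of these data known. The scripts were tested on simulated data. Python 3.11.15, numpy 2.4.6, scipy 1.17.1 and pandas 2.3.3 were used. Alternatives changed the scale, pseudocount (0.1), cells, sets and threshold.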

Additional observations from a re-analysis of the deposited data

How the results depend on the processing

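No level has a replicate of its condition beyond the TGFβR-WT sets, and UMIs before correction were not used here, so depth limits rest on counting error alone. No paired analysis was possible because the TGFβR-WT cells are not tied to numbered samples and no test was made. In tumorigenic against other TGFβR-KO cells, 3 members were lower, and 1 (*Egr2*) by share of cells. In TGFβR-KO against TGFβR-WT over all cells, the 1 lower member became 0 with the mean per cell, with *Hspa1a* or *Hspa1b* cells left out, with 0.1 added, without tumorigenic and pretumorigenic cells and at TGFβR-WT cluster shares, and the 2 higher members became 0 without tumorigenic and pretumorigenic cells, where the *Nr4a1* ratio turned to 0.701. These cluster settings, and leaving out the cell with most UMIs, were chosen after seeing the data. In TGFβR-CA against TGFβR-WT, 1 member (*Egr1*) was lower without shared barcodes, and leaving out either TGFβR-WT set gave 0 to 2 (*Egr1* and *Egr3* without the smaller set). In pretumorigenic cells leaving out a set gave 0 to 3 lower members (the EGR genes without the smaller set, with *Egr2* at 0.488, where 31.6% of all genes were lower). Tumorigenic against pretumorigenic cells had 1 higher member, and 2 by share of cells. Genes called higher in tumorigenic cells went from 6.43% to 12.7% of all genes without the filter and 3.17% at 2-fold. Of the counts of members under the alternatives, 64 were within 1.5 times of those reported and 11 moved. The other values were ratios and differences of single members and shares of all genes. Of these 155 stayed the same, by counting error or within 1.5 times, 67 moved and 2 reversed direction.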
